A study of Mus musculus with 2 samples.

Results

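Astrocytes answer injury of the brain with a change of shape and of gene expression known as reactive astrogliosis. The 10 genes described here, *Gfap*, *Vim*, *A2m*, *Serpina3n*, *Lcn2*, *Cd44*, *Osmr*, *S1pr3*, *Timp1* and *Aspg*, are widely used as marks of that state, and they were picked by name among the 55450 genes of the tables, with earlier results of these data known. *Gfap* and *Vim* encode the intermediate filaments of reactive astrocytes. *A2m*, *Serpina3n*, *Timp1* and *Lcn2* encode secreted proteins, the first 3 of them inhibitors of proteases and the last a carrier of iron-binding siderophores. *Cd44*, *Osmr* and *S1pr3* encode receptors for hyaluronan, for oncostatin M and for sphingosine 1-phosphate, and *Aspg* encodes an enzyme of the asparaginase family. Cytokines of the interleukin 6 family are known to act on astrocytes through receptors that pair with gp130 (*Il6st*) and through the transcription factor STAT3.

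The data were 2 droplet scRNA-seq libraries of mouse (C57BL/6) cerebral cortex, Control 1 and WMI 1. WMI is white matter injury after hypoxia-ischemia in newborn mice. According to the sample labels the right common carotid artery was tied at postnatal day 7 (P7), hypoxia lasted 1 h, and the cortex of the tied side was taken at P14, when mice were 2 weeks old. The same side was taken from the control group, and the labels do not say whether that group had a sham operation or hypoxia. The methods of the paper describe younger pups and a longer hypoxia than the labels, dissociated cells where the labels speak of nuclei, and several animals per group, and the libraries are not tied to single animals. It also speaks of sham cortex in one place and of a control side in another, so that what the Control tissue was is not settled. There was 1 library per condition, so that no test was possible between conditions. The intervals given here are exact 95% intervals for counting error alone and leave out the variation between mice. Those of levels and ratios also leave out the variation between cells of a library, and are too narrow where few cells hold most UMIs.

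The Control library held 66470806 UMIs (unique molecular identifiers, each a counted RNA molecule) in 10288 barcodes and the WMI library 60568639 in 8354, of which 8755 and 7571 were kept as cells. A cell was called an astrocyte when it held UMIs of at least 4 of the 8 genes *Acsbg1*, *Atp13a4*, *Nwd1*, *Daam2*, *Prdm16*, *Slc39a12*, *Gja1* and *Aqp4*, and more of these than markers of any other class. The gate used none of the 10 genes. It gave 338 astrocytes in the Control library (3.86% of its cells, 1888828 UMIs) and 365 in the WMI library (4.82%, 2216663 UMIs), with a median of 6 gate genes per cell in each. All 16 listed genes of astrocyte homeostasis reached 50 UMIs in these cells. All 8 microglia or macrophage markers did so too, so that reaching this number does not tell the class. *Slc1a2*, the glutamate transporter, stood at 8225 CPM (UMIs of the gene per 1000000 UMIs of the class) in Control and 6180 CPM in WMI astrocytes. The libraries differed in several respects beside the condition. *Xist*, which is transcribed from the inactive X chromosome of females, was found in 1 of the 338 Control astrocytes and in 251 (68.8%) of the 365 WMI astrocytes. The median share of mitochondrial UMIs in astrocytes was 0.0786% and 0.181%, and their median depth was 5133 and 5624 UMIs. Barcode sequences shared by both libraries numbered 36, none of them an astrocyte in both.

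Genome positions are those of GENCODE M21 on GRCm38, which holds all identifiers of the tables. The *Gfap* gene lies on the minus strand at chr11:102887336-102900912, within the noncoding RNA gene *Gm26668* of the other strand and without overlap of exons, and *Cd44* and *Lcn2* on the minus strand at chr2:102811141-102901665 and chr2:32384633-32388252. The promoters of RefSeq (GRCm38.p6), 250 bases before to 50 bases after a gene's start, held 9 of the 10 genes. STAT proteins are known to bind TTCNNNGAA, and a form with a wider spacer, TTCNNNNGAA, is known for some of them. Both read the same on either strand. The first was present in 1 of the 9 promoters, that of *Gfap*, and in 8.30% of 32851 promoters of the same length. The second was present in 3 of 9, those of *Gfap*, *Cd44* and *Lcn2*, and in 6.95% of all. The sequences below are the 250 bases before the RefSeq start of these 3 genes, which for *Gfap* and *Lcn2* lies inside the longer gene of GENCODE, 5′ to 3′ on the strand of the gene, with matches in capitals, and they are shown as the only promoters of the 9 that hold either motif. In *Gfap* one match spans the start from base -2 to base 7 and was printed to its end, and the other lies at -115 to -106. The matches of *Cd44* and *Lcn2* lie at -211 to -202 and at -156 to -147, and no match overlaps another. A match describes the letters only.
*Gfap*, chr11:102897194-102897450: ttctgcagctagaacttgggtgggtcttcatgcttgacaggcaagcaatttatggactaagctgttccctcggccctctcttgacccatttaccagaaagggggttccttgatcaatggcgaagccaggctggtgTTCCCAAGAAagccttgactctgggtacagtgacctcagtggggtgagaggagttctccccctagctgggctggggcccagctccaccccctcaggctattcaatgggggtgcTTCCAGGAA
*Cd44*, chr2:102901666-102901915: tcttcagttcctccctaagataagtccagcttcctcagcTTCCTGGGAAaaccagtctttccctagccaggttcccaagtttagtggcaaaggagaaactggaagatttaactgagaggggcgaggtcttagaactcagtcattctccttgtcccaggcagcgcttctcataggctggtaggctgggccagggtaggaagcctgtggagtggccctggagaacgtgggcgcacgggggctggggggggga
*Lcn2*, chr2:32387740-32387989: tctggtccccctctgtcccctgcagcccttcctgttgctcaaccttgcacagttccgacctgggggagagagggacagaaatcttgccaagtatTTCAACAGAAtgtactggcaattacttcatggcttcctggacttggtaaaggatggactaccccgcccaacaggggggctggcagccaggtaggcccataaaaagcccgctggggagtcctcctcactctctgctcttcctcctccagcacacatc
Of the other motifs searched, the TATA box TATAAA was found in the promoter of *Vim* at -32 to -27 and in 13.6% of all promoters, and TGANTCA, the letters of AP-1 sites, in that of *Osmr* (7.81% of all). The NF-kB motif was found at 2 places of the *Vim* promoter, on either strand, and in 6.93% of all promoters.

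The first question was how the 10 genes differed between astrocytes of the WMI and the Control library. All 10 were higher in WMI astrocytes, for *Gfap*, *A2m*, *Cd44*, *Osmr*, *Aspg* and *Vim* by at least 9.59-fold. Of the 8959 genes with at least 50 UMIs in astrocytes of both libraries together, 4.89% were at least 2-fold higher in WMI and 1.28% at least 2-fold lower. These 6 members reached 50 UMIs and 4 did not. Since most of their UMIs came from the WMI library, reaching that number was not independent of the difference, and the count of 6 is no evidence by itself. With a filter on the Control library alone (at least 10 UMIs), 11952 genes were left, of which 4.07% were at least 2-fold higher in WMI. *A2m*, *Gfap* and *Cd44* passed this filter and stood at places 1, 4 and 6 in order of the ratio.

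Among the filament genes, *Gfap* gave 120 UMIs in Control and 1695 UMIs in WMI astrocytes. Its level was 63.5 CPM (95% interval 52.7 to 76.0) against 765 CPM (729 to 802), a log2 ratio of 3.59 (3.32 to 3.87) or 12.04-fold. The median log2 ratio of all 8959 genes was 0.09, and *Gfap* stood at place 23 from the highest. *Vim* was low in both libraries, with 4 UMIs (2.12 CPM) in Control and 54 UMIs (24.4 CPM) in WMI astrocytes. Its log2 ratio was 3.52 (2.08 to 5.45). Of the other intermediate filament genes, *Lmna*, a nuclear lamin, and *Synm* lay above *Vim* in Control and below it in WMI astrocytes. *Lmna* gave 11.6 and 12.6 CPM, *Synm* 7.94 and 3.61 CPM (15 and 8 UMIs), *Des* 1 and 0, and *Nes*, the filament of neural progenitors, 0 and 1.

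Of the genes for secreted proteins, *A2m*, a broad protease inhibitor that is also known as an acute phase protein, showed the widest gap that rested on more than 10 Control UMIs. It gave 13 UMIs (6.88 CPM, 3.66 to 11.8) in Control and 517 UMIs (233 CPM, 214 to 254) in WMI astrocytes, a log2 ratio of 5.08 (4.30 to 6.00). *Serpina3n*, a serine protease inhibitor, gave 1 and 48 UMIs (0.529 and 21.7 CPM), a log2 ratio of 5.35 with the wide interval of 2.81 to 10.7. *Timp1*, an inhibitor of metalloproteinases, was not found in Control astrocytes and gave 10 UMIs (4.51 CPM) in WMI astrocytes. Set against the limit of 3 counts that a count of 0 allows in the whole Control class, it was 2.84-fold higher. *Lcn2* was likewise at 0 in Control and gave 9 UMIs (4.06 CPM) in 8 WMI astrocytes, 2.56-fold higher against that limit. These folds leave out the counting error of the WMI UMIs. The lower limits of the exact intervals were 1.91-fold for *Timp1* and 1.68-fold for *Lcn2*, both under 2-fold. Reads that match several near-identical genes can be dropped or split in counting, so the level of *Serpina3n*, one of a family of close copies, is uncertain. *Pzp*, a relative of *A2m*, gave 2 and 4 UMIs, *Serpina3i* 0 and 6, and 8 further listed relatives none in either library. *Timp2*, *Timp3* and *Timp4* were already present in Control astrocytes at 34.9, 78.9 and 46.1 CPM. Their log2 ratios were 0.72 (0.29 to 1.18), 0.06 (-0.26 to 0.38) and -0.89 (-1.41 to -0.39), so that *Timp4* lay on the other side of 0 from *Timp1*.

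Of the receptors, *Cd44* gave 20 UMIs (10.6 CPM) in Control and 225 UMIs (102 CPM) in WMI astrocytes, a log2 ratio of 3.26 (2.60 to 4.00). *Osmr* gave 9 UMIs (4.76 CPM) and 103 UMIs (46.5 CPM), a log2 ratio of 3.29 (2.31 to 4.45). *S1pr3* gave 4 and 28 UMIs (2.12 and 12.6 CPM), with a log2 ratio of 2.58 (1.06 to 4.55). Its exons overlap those of *Gm32834*, a noncoding RNA gene of the other strand. Of the other genes of this receptor family, only *S1pr1* had the UMIs for a ratio. *S1pr1*, the main receptor of this family in astrocytes here, stood at 87.4 and 80.8 CPM (log2 ratio -0.11, -0.43 to 0.20), and *S1pr2*, *S1pr4* and *S1pr5* had at most 2 UMIs in a library. The enzyme gene *Aspg* had the largest ratio of the 10 genes, from 1 UMI (0.529 CPM) in Control to 114 UMIs (51.4 CPM) in WMI astrocytes. Its log2 ratio was 6.60 (4.09 to 11.9), at place 3 among the 8959 genes with at least 50 UMIs, after *Xist* and *Spp1*. *Aspg* reached 50 UMIs through the WMI library. Genes with 0 Control UMIs were ranked by the limit of 3 counts, so that a gene with 1 Control UMI can stand above them. The place is therefore no evidence by itself.

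**Figure D1:**
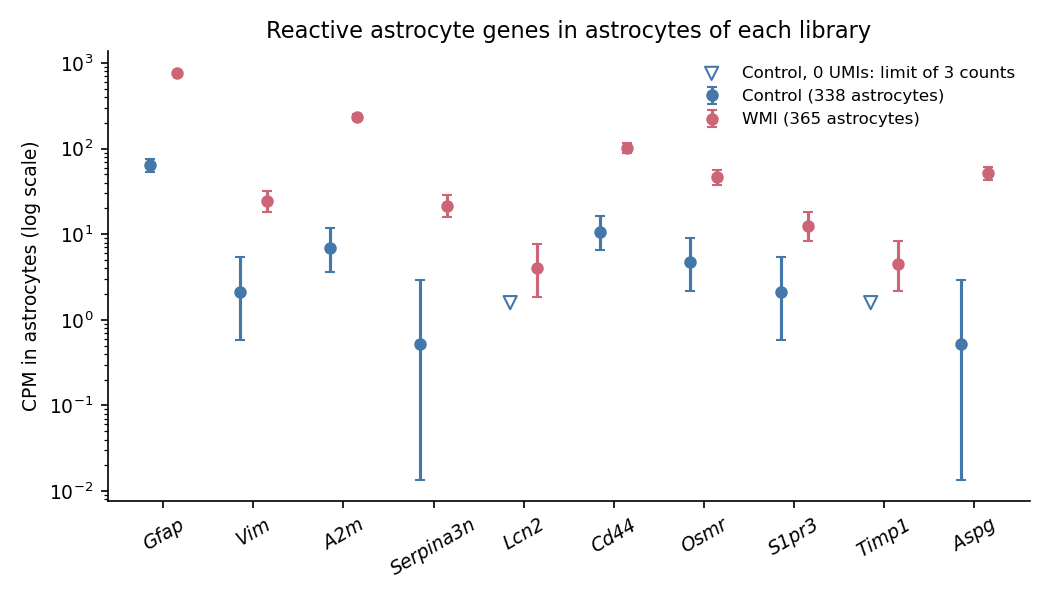
Level of each gene in astrocytes of the Control and WMI libraries, in CPM on a log scale. Points are the values of 1 library each, bars exact 95% Poisson intervals, and open triangles the limit of 3 counts (1.59 CPM) for *Lcn2* and *Timp1*, which had 0 Control UMIs. All 10 WMI points lie above the Control points or triangles, and for *Lcn2* and *Timp1* the gap to the triangle leaves out the counting error of the WMI point.

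**Figure D2:**
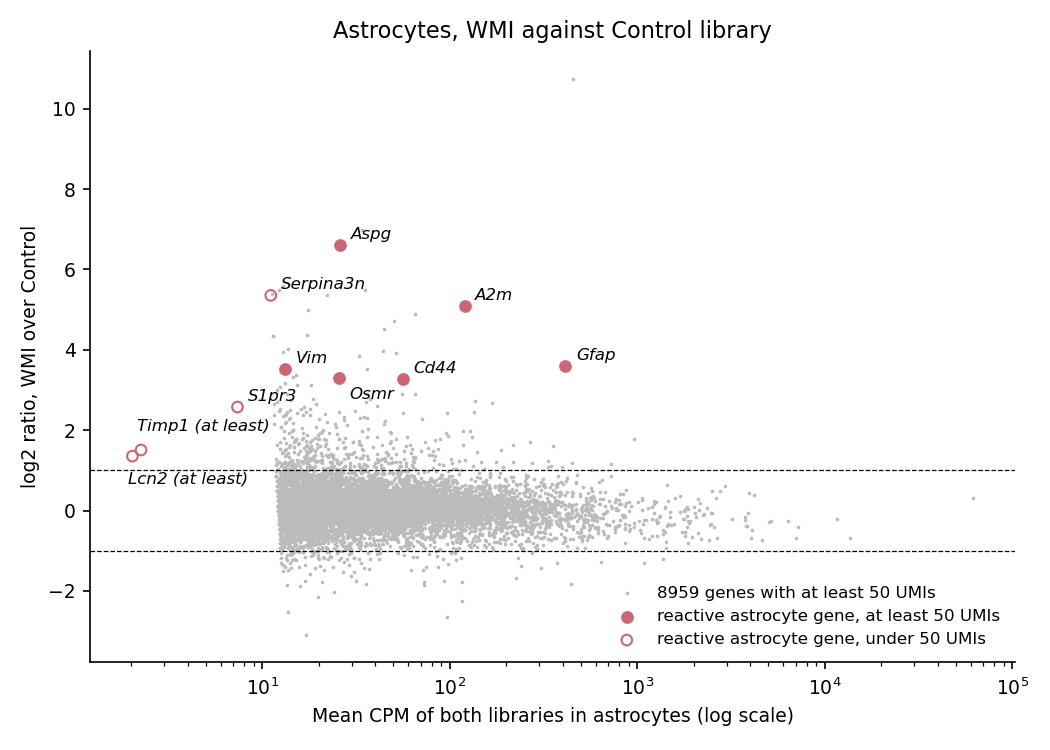
The log2 ratio of WMI over Control in astrocytes against the mean CPM of both libraries (log scale), for all 8959 genes with at least 50 UMIs (grey), with the 10 genes in red and those under 50 UMIs as open circles. Dashed lines mark 2-fold. *Gfap*, *A2m*, *Cd44*, *Osmr*, *Aspg* and *Vim* lie well above the cloud, and the values of *Lcn2* and *Timp1* are lower bounds.

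Levels of different genes were compared by CPM and per kilobase of annotated exon. A UMI stands for 1 RNA molecule whatever its length, so division by length can distort the order. By CPM the order in WMI astrocytes was *Gfap*, *A2m*, *Cd44*, *Aspg*, *Osmr*, *Vim*, *Serpina3n*, *S1pr3*, *Timp1* and *Lcn2*. The values per kilobase follow. In WMI astrocytes *Gfap* led with 181 CPM per kb (173 to 190), followed by *A2m* with 33.2 (30.4 to 36.2). *Cd44* with 15.0 (13.1 to 17.1), *Aspg* with 14.6 (12.05 to 17.5) and *Serpina3n* with 10.5 (7.74 to 13.9) came next, and these neighbours in the order overlapped in their intervals. *Vim* (5.14), *Timp1* (5.08), *Osmr* (3.84), *S1pr3* (2.83) and *Lcn2* (1.55 CPM per kb) lay lower, and neighbours overlapped there as well. The interval of *Timp1* (2.44 to 9.34) also overlapped that of *Serpina3n*. The place of *Osmr* in this order rests on its long exons, since by CPM alone (46.5) it stood next to *Aspg* (51.4) and above *Vim* (24.4) and *Serpina3n* (21.7). That of *Timp1* rests on its short exons, since by CPM (4.51) it stood next to *Lcn2* (4.06). In Control astrocytes *Gfap* also led, with 15.1 CPM per kb, ahead of *Cd44* with 1.56 and *A2m* with 0.980 CPM per kb. *Aspg* was the lowest per kilobase of the 8 genes found there, at 0.150 CPM per kb (0.00381 to 0.838), and the intervals of *Cd44* and *A2m* overlapped. By CPM *Aspg* and *Serpina3n* were level there, at 0.529 each.

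The same difference was seen in the share of astrocytes that held the transcript. Each cell was thinned to 1000 UMIs, since detection depends on depth. *Gfap* was then found in 5.92% of Control astrocytes (20 cells, 3.65 to 8.99%) and in 35.3% of WMI astrocytes (129 cells, 30.4 to 40.5%). The share was thus higher by 29.4 percentage points in WMI, with an interval from 23.6 to 35.0. Without thinning the shares were 19.8% and 67.1%. Excitatory neurons, which should lack *Gfap* and were taken as a measure of free RNA in the droplets, gave 0.419% and 3.04% after thinning. Without thinning they gave 1.56% and 18.4%. In the WMI library the thinned share was 3.21% in oligodendrocytes, 3.59% in inhibitory neurons, 6.43% in OPCs and 7.06% in microglia or macrophages. The neurons alone thus do not settle the level of free RNA. The median depths of the excitatory neurons were 6854 and 8828.5 UMIs. The other members were found in few cells at this depth. *A2m* was found in 0.592% and 9.32% of astrocytes, *Cd44* in 0.296% and 6.58%, *Aspg* in 0.296% and 4.66%, *Osmr* in 0.296% and 3.84%, and *Vim* in 0 of 338 Control cells, which allows a share of up to 0.888% of cells with a UMI at this depth, and 2.74% of WMI cells. Without thinning, *Vim* was found in 4 Control cells (1.18%) and in 11.5% of WMI cells. In excitatory neurons of the WMI library the shares of these 5 genes were 0.572%, 1.47%, 0.215%, 0.250% and 0.501%. In the Control library the shares of *Cd44*, *S1pr3*, *Vim* and *Timp1* in excitatory neurons were 0.639%, 0.299%, 0.160% and 0.180%. Those in the 338 astrocytes were 0.296% for *Cd44* and *S1pr3* and 0 for *Vim* and *Timp1*, too few cells to show an order. By level, *Cd44* (10.6 and 6.41 CPM) and *Vim* (2.12 and 0.649) were higher in astrocytes than in these neurons. *S1pr3* (2.12 and 2.82 CPM) and *Timp1* (0 and 0.674) were lower. The values of the neurons need not be free RNA alone, since *Cd44* differed between classes of the Control library, with 6.41 CPM in excitatory neurons and 1.52 CPM in OPCs. For *Serpina3n* and *S1pr3* (0.296% and 1.92% each) the interval of the difference reached from -0.141 to 3.64 percentage points, and for *Timp1* (0.548% of WMI cells) and *Lcn2* (0.274%) it also held 0, so that no difference in share was detectable for these 4 genes after thinning. Without thinning the intervals lay above 0 for all 4, with WMI minus Control differences of 9.84 percentage points for *Serpina3n* (6.65 to 13.4), 4.84 for *S1pr3* (1.98 to 7.92), 2.47 for *Timp1* (0.747 to 4.63) and 2.19 for *Lcn2* (0.543 to 4.27).

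The second question was how far the 10 genes belonged to astrocytes. Within each library, astrocytes were compared with all other cells that reached a class (6230 in Control and 5488 in WMI). In the WMI library all 10 genes reached 50 UMIs and were at least 2-fold higher in astrocytes, where 15.0% of 17072 genes were. In the Control library *Gfap*, *Cd44* and *S1pr3* reached 50 UMIs, and of these *Gfap* alone was at least 2-fold higher. Of all 16958 genes with 50 UMIs there, 13.2% were. With no such minimum 5 of 10 were (*Gfap*, *A2m*, *Osmr*, *Vim* and *Serpina3n*), a count with no background share to be read against. The intervals of *Vim* (4 astrocyte UMIs) and *Serpina3n* (1) held a log2 ratio of 0. *Gfap* in Control was 63.5 CPM in astrocytes and 2.14 CPM in the other cells (log2 ratio 4.89, 4.50 to 5.29). In WMI it was 765 and 33.9 CPM (4.50, 4.39 to 4.60). The level of *Gfap* was higher in the WMI library in each of the other larger classes too, going from 2.15 to 22.4 CPM in excitatory neurons, from 0.675 to 33.6 in inhibitory neurons, from 3.54 to 66.6 in oligodendrocyte precursor cells (OPCs), from 2.72 to 42.7 in oligodendrocytes and from 1.93 to 72.0 CPM in microglia or macrophages. These values are those of *Gfap* RNA in cells of another type, and the part of free RNA or of mixed droplets in them was not tested. Subtracting the level of excitatory neurons of the same library left 61.4 CPM in Control and 742 CPM in WMI astrocytes. In the WMI library that neuron level, 22.4 CPM, was the lowest of these larger classes.

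*A2m* had the highest ratio of astrocytes over other cells among the 10 genes in the WMI library, with 233 CPM against 4.89 CPM in the other cells (log2 ratio 5.58, 5.34 to 5.81). In the Control library the values were 6.88 and 0.398 CPM (4.11, 2.97 to 5.21). *Aspg* followed in WMI with 51.4 against 1.22 CPM (5.39, 4.91 to 5.89), while in Control it was as low in astrocytes (1 UMI, 0.529 CPM) as elsewhere (0.335 CPM). Astrocytes, which held 4.82% of the cells of the WMI library, held 517 (53.6%) of all 965 *A2m* UMIs of that library, 114 (46.9%) of 243 *Aspg* UMIs and 1695 (36.6%) of 4632 *Gfap* UMIs. *Osmr* was higher in astrocytes than in the other cells together, with log2 ratios of 3.02 (1.75 to 4.15) in Control and 4.35 (3.93 to 4.76) in WMI. In the small classes of the vessels and meninges its level lay above that of astrocytes. Endothelial cells held 167 CPM in Control (9 UMIs in 14 cells) and 89.8 CPM in WMI (5 UMIs in 11 cells). Fibroblasts held 21.1 CPM (3 UMIs in 22 cells) and 101 CPM (15 UMIs in 23 cells), and the 10 mural cells of the WMI library 97.5 CPM (4 UMIs). *Cd44* was spread over more classes. In the Control library 257 of its 407 UMIs lay in excitatory neurons (6.41 CPM, against 10.6 CPM in astrocytes), and in WMI microglia or macrophages it reached 35.0 CPM, against 2.89 CPM in the Control library. *Serpina3n* (21.7 against 2.54 CPM), *Vim* (24.4 against 4.50 CPM), *Timp1* (4.51 against 1.08 CPM), *Lcn2* (4.06 against 1.15 CPM) and *S1pr3* (12.6 against 4.15 CPM) were higher in WMI astrocytes than in the other cells together by log2 ratios between 1.61 and 3.09. In small classes of the WMI library some of them lay above astrocytes on few UMIs. *S1pr3* was 122 CPM in the 10 mural cells (5 UMIs) and *Vim* 33.8 CPM in the 23 fibroblasts (5 UMIs). *Lcn2* and *Timp1* were 6.76 CPM in fibroblasts, on 1 UMI each. In the Control library *S1pr3* stood at 2.12 CPM in astrocytes and 2.83 CPM in the other cells (log2 ratio -0.42, -2.31 to 0.97), and *Cd44* was 1.81-fold higher in astrocytes (1.09 to 2.85). *Lcn2* had no UMI in any of the 10288 Control barcodes and 79 UMIs in the WMI library, 9 of them in astrocytes, 21 in excitatory neurons and 15 in microglia or macrophages.

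The *Timp1* gene (chrX:20870166-20874735, plus strand) lies within *Syn1*, a synaptic gene of the minus strand, without overlap of exons. Of the 39 *Timp1* UMIs of the Control library, 27 were in excitatory neurons, where *Syn1* was at 181 CPM. *Syn1* in astrocytes was 90.0 CPM in Control and 76.7 CPM in WMI. Whether UMIs were assigned by strand is not given in the sources used here. Without strand, reads from *Syn1* introns over *Timp1* could not be told from reads of *Timp1*, while reads from *Syn1* exons could.

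**Figure D3:**
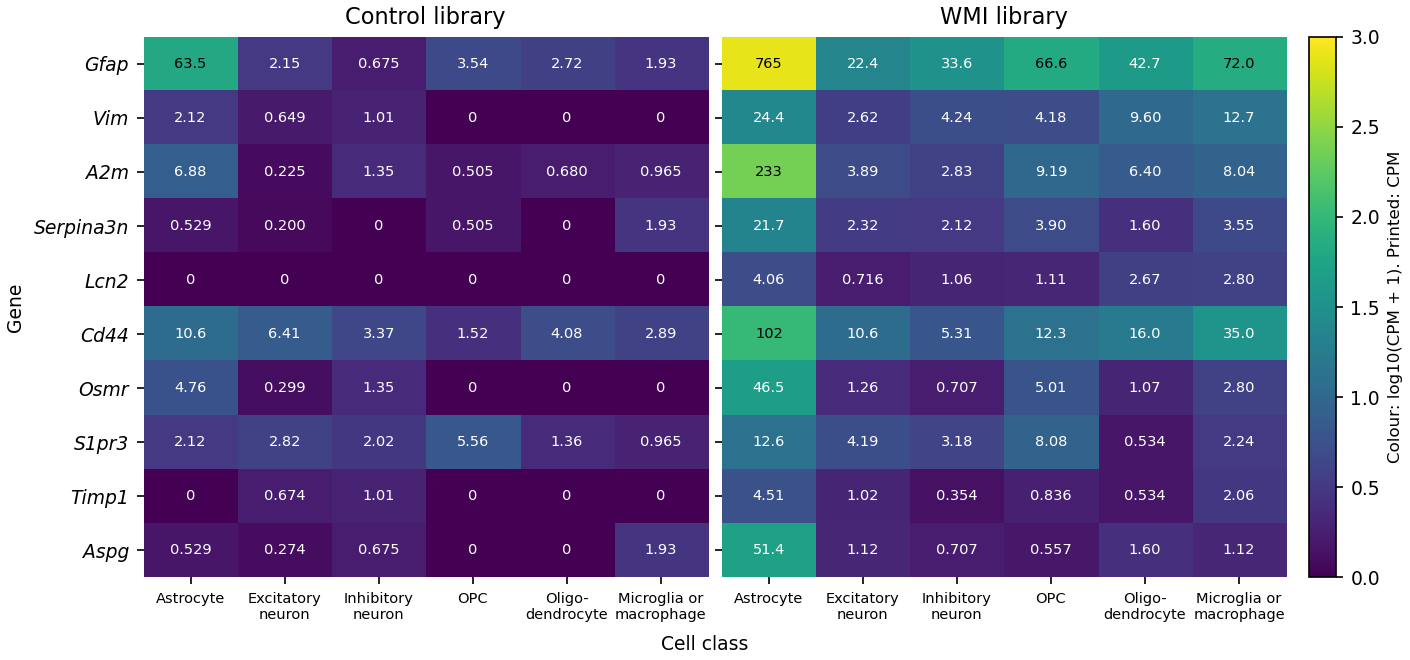
CPM of each gene (rows) in the classes with over 200 cells in each library (columns), in the Control and the WMI library. Colour is log10(CPM + 1) and the printed numbers are CPM. Among these classes astrocytes have the highest value of all 10 genes in the WMI library, and *Gfap* is higher in every class of the WMI library.

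The genes around the members were then taken from fixed lists. For the receptor that *Osmr* forms with *Il6st*, 2 of 7 genes of the pathway that reached 50 UMIs were at least 2-fold higher and none lower. Of all genes, 4.89% were higher and 1.28% lower. The median log2 ratio of the 7 was -0.01, beside 0.09 for all genes. *Stat3* was 57.2 and 178 CPM in Control and WMI (108 and 394 UMIs, log2 ratio 1.64, 1.33 to 1.96) and *Il6st* was 38.1 and 89.3 CPM (1.23, 0.83 to 1.64). The kinases *Jak1* (-0.01), *Jak2* (-0.05) and *Tyk2* (0.03) were level, while the receptor genes *Lifr* (-0.38, -0.68 to -0.09) and *Cntfr* (-0.77, -1.13 to -0.42) were lower in WMI. The ligands *Osm*, *Il6*, *Lif* and *Cntf* had no UMI in astrocytes of either library. In microglia or macrophages, a known source of oncostatin M, *Osm* gave 3 UMIs in Control and 8 in WMI. That class held 1036379 UMIs in Control and 5350197 in WMI, so that the larger count is not a higher level. Of the ligands of *Cd44*, *Spp1* (osteopontin) gave 1 and 149 UMIs in astrocytes (0.529 and 67.2 CPM). In the WMI library *Spp1* was 193 CPM in microglia or macrophages and 43.9 CPM in excitatory neurons. The hyaluronan synthase *Has2* gave 3 and 10 UMIs in astrocytes. The receptors for secreted members, *Lrp1* for alpha-2-macroglobulin (171 and 146 CPM) and *Slc22a17* for lipocalin-2 (103 and 100.2 CPM), had log2 ratios of -0.23 (-0.45 to 0.00) and -0.04 (-0.33 to 0.24).

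Most of the other genes described as reactive had too few UMIs for a call. Of the 4 other pan-reactive genes 1 reached 50 UMIs, *Cp* (ceruloplasmin), which gave 2 and 96 UMIs (1.06 and 43.3 CPM, log2 ratio 5.35, 3.46 to 8.42). *Cxcl10*, a chemokine, gave 0 and 40 UMIs, *Steap4*, a metalloreductase, 0 and 28 UMIs and *Hspb1* 0 and 1. Of the 11 genes described for the A1 state, 2 reached 50 UMIs. *Ggta1* was 4.24 and 126 CPM (4.90, 3.90 to 6.12) and *Fkbp5* was lower, 37.6 and 19.4 CPM (-0.95, -1.54 to -0.39). *Serping1*, an inhibitor of complement C1, gave 1 and 37 UMIs. Of the 12 genes described for the A2 state only *Cd109* reached 50 UMIs (2.65 and 22.1 CPM, 3.06, 1.74 to 4.75), and *Ptx3*, a pentraxin, gave 1 and 41 UMIs. *Cp*, *Ggta1* and *Cd109* reached 50 UMIs through the WMI library, so that their number is no evidence by itself. Of the other A1 genes under 50 UMIs, *H2-D1* gave 8 and 29 UMIs, *Srgn* 1 and 13, *Iigp1* 0 and 11, *Gbp2* 1 and 10 and *Psmb8* 0 and 7. *Fbln5* gave 1 and 3, *Amigo2* 2 and 2 and *H2-T23* 1 and 1. Of the other A2 genes, *S100a10* gave 14 and 32 UMIs, *Tm4sf1* 0 and 9, *Tgm1* 2 and 9, *B3gnt5* 0 and 8, *Cd14* 3 and 8 and *Clcf1* 2 and 6. *Slc10a6* gave 1 and 2, *Ptgs2* 2 and 1, *Emp1* 4 and 1 and *Sphk1* none. The genes of astrocyte homeostasis were mostly level. Of 16, 2 were at least 2-fold higher, *Apoe* (435 and 1485 CPM, 1.77, 1.66 to 1.88) and *Sox9* (38.6 and 114 CPM, 1.56, 1.18 to 1.95), and none was 2-fold lower, with a median log2 ratio of -0.07. Of all genes, 4.89% were at least 2-fold higher and 1.28% lower. Of the 4 grey matter astrocyte genes *Chrdl1* was at least 2-fold lower (91.1 and 32.5 CPM, -1.49, -1.90 to -1.08), and the median was -0.66. Of the 5 subpial and white matter genes 4 reached 50 UMIs and were at least 2-fold higher, *S100a6* (2.77), *Myoc* (2.07), *Id1* (1.58) and *Id3* (1.47), beside 4.89% of all genes. Of these only *Id3* had 50 UMIs in the Control library (70), and the others passed that minimum through the library where they were high. The remaining gene, *Thbs4*, gave 17 and 27 UMIs (0.44, -0.49 to 1.40). Of the 8 gate genes 1 was at least 2-fold higher, *Aqp4*, the water channel of astrocyte endfeet, with 125 and 412 CPM (1.71, 1.51 to 1.93). The median of the 8 was -0.12, and *Acsbg1* was the lowest (-0.81, -0.99 to -0.64).

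Markers of other cell types in the astrocytes were given for all lists. The 8 microglia or macrophage markers summed to 147 CPM in Control and 452 CPM in WMI astrocytes, with *Tyrobp* at 3 and 57 UMIs. Of these markers, 7 of 8 were at least 2-fold higher, where 4.89% of all genes were. Cells of that class made up 294 of the Control and 1345 of the WMI cells. The 8 OPC markers summed to 539 and 891 CPM (2 of 6 that reached 50 UMIs at least 2-fold higher, beside the same 4.89%) and the fibroblast markers to 25.4 and 43.3 CPM (none of 8 at 50 UMIs). Endothelial markers summed to 10.6 and 10.4 CPM (none of 8 at 50 UMIs) and mural markers to 97.9 and 85.3 CPM (0 of 2). The ependymal markers summed to 7.94 and 19.4 CPM and the oligodendrocyte markers to 502 and 497 CPM. Excitatory neuron markers summed to 1629 and 1157 CPM, inhibitory neuron markers to 534 and 392 CPM and striatal markers to 374 and 309 CPM. Only 28 WMI astrocytes and 148 Control astrocytes held no UMI of the 8 microglia or macrophage markers, and in these the log2 ratio of *Gfap* was 3.65 (3.12 to 4.18), of *Cd44* 3.34 (1.26 to 5.61) and of *A2m* 3.98 (2.51 to 5.64), against 5.08 for *A2m* in all astrocytes. In these cells 6 of the 10 members were at least 2-fold higher, and *Serpina3n*, *Lcn2*, *S1pr3* and *Timp1* had too few UMIs for a ratio. This count has no background share to be read against. The share of cells with *Aspg* after thinning differed by -0.676 percentage points (WMI minus Control), on 1 thinned *Aspg* UMI in Control astrocytes. The log2 ratio of the *Aspg* level was at least 4.06 over 16 alternatives, these cells among them.

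The members were also compared between cells of different sex transcripts, because *Xist* differed between the libraries. Among cells with a Y-linked UMI and no *Xist* (296 Control and 94 WMI astrocytes), *Gfap* was 62.8 and 773 CPM (log2 ratio 3.62, 3.31 to 3.94), *A2m* 7.11 and 199 CPM (4.80, 3.94 to 5.80), *Cd44* 10.7 and 93.2 CPM (3.13, 2.33 to 3.99) and *Aspg* 1 and 22 UMIs (6.03, 3.40 to 11.4). The ratio of *Gfap* was as large without the cells that held *Xist*. Within the WMI library, cells with *Xist*, whether or not they held Y-linked UMIs, and cells with Y-linked UMIs and no *Xist* were compared as well. Free RNA can place a cell in the wrong group, and its part was not tested. *Gfap* was 777 CPM in the former and 773 CPM in the latter (log2 ratio 0.01, -0.15 to 0.17), and for *Cd44* (0.20, -0.25 to 0.67), *Osmr* (-0.23, -0.87 to 0.44) and *Aspg* (0.58, -0.11 to 1.32) the interval held 0. *A2m* was 254 CPM in cells with *Xist* and 199 CPM in the others (0.36, 0.05 to 0.67).

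The third question was whether the same astrocytes carried several members. In the thinned cells no member was found in 92.6% of Control and 57.5% of WMI astrocytes. At least 2 of the 10 genes were found in 2 Control cells (0.592%) and 59 WMI cells (16.2%), and at least 3 in 0 and 18 cells (4.93%). With all UMIs, 0 Control and 105 WMI astrocytes (28.8%) held at least 3 members, and the highest number in a cell was 2 and 8. UMIs were unevenly spread over cells. The most a WMI astrocyte held was 53 UMIs of *Gfap* and 35 UMIs of *A2m*, and the 37 of the 365 cells with the most *A2m* UMIs held 88.2% of them. For *Gfap* that share was 52.4% and for *Cd44* 70.2%. In all, 3 Control and 102 WMI astrocytes held 5 or more *Gfap* UMIs.

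**Figure D4:**
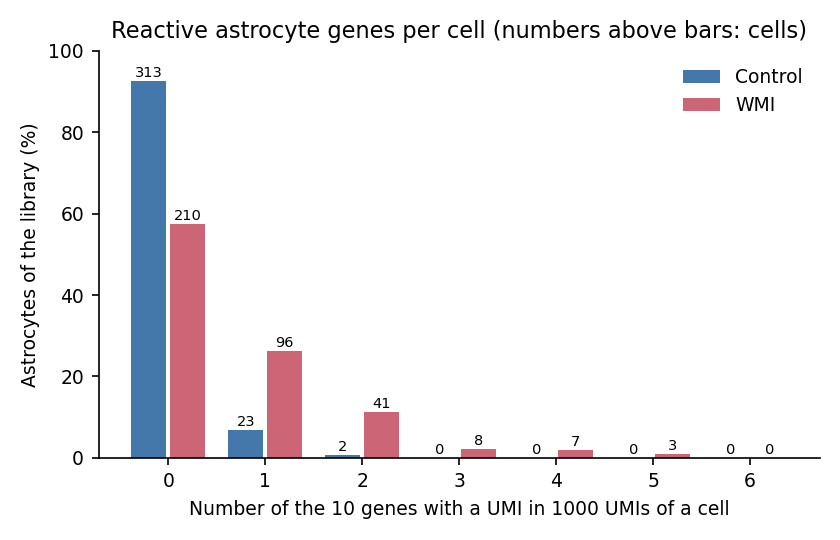
Share of astrocytes (%) by the number of the 10 genes with a UMI after thinning each cell to 1000 UMIs, for 338 Control and 365 WMI astrocytes, with the number of cells above each bar. Control astrocytes hold at most 2 of the genes, and 18 WMI astrocytes hold 3 to 5.

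In the WMI library the other members were found mainly in astrocytes with *Gfap*. After thinning, 129 cells held a *Gfap* UMI and 236 did not, with median depths of 5913 and 5453 UMIs before thinning and a median of 6 gate genes in each. *A2m* gave 63 UMIs in the former and 5 in the latter (488 and 21.2 CPM, log2 ratio 4.53, 3.23 to 6.20). *Aspg* gave 15 and 3 UMIs (3.19, 1.37 to 5.62), *Osmr* 10 and 5 (1.87, 0.19 to 3.77) and *Cd44* 17 and 12 (1.37, 0.22 to 2.57). Of the 9 other members only *A2m* had the 40 thinned UMIs asked of all genes, of which 2.72% of 1693 were at least 2-fold higher in *Gfap*-positive cells. With no such minimum 7 of the 9 were, on 7 to 29 UMIs each beside *A2m*, which has no background share to be read against. The intervals of *Vim* and *S1pr3* held 0, and *Lcn2* and *Timp1* had too few UMIs for a ratio. In the Control library 4.80% of 1479 genes were at least 2-fold higher in the 20 *Gfap*-positive cells, and no other member had the UMIs for a ratio. The genes most like *Gfap*, by the lower of the ratios in the Control and WMI libraries among 3152 genes, were *Neat1* (3.18 and 2.39), *Them4* (1.67 and 1.92), *Igfbp5* (2.25 and 1.44), *Mapre1* (2.41 and 1.37), *Adamts9* (1.72 and 1.35), *Pbxip1* (1.74 and 1.35), *Pdgfd* (1.29 and 1.44), *Micu2* (1.67 and 1.23), *Prkag2* (1.23 and 1.19) and *Trpc1* (1.18 and 1.21). For *Neat1*, a nuclear long noncoding RNA, and *Adamts9* the intervals lay above 0 in both libraries. The genes were picked by these same ratios, so that the intervals are no separate evidence. The Control values rest on 11 UMIs of *Neat1* and 35 of *Adamts9*.

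With all UMIs the WMI astrocytes were divided into 120 cells without *Gfap*, 143 cells with 1 to 4 UMIs and 102 cells with 5 or more. *A2m* stood at 16.9 CPM (8.44 to 30.2), 52.0 CPM (38.0 to 69.6) and 657 CPM (599 to 720) in this order. *Cd44* stood at 27.7, 46.3 and 238 CPM, *Osmr* at 9.22, 31.2 and 99.8 CPM and *Aspg* at 3.07, 28.9 and 124 CPM. All 10 *Timp1* UMIs lay in cells with 5 or more *Gfap* UMIs. Astrocyte genes that are no members went both ways over the same cells. *Stat3* (89.1, 153 and 291 CPM), *Aqp4* (194, 308 and 743 CPM) and *Myoc* (4.61, 16.2 and 103 CPM) were highest in the cells richest in *Gfap*, whereas *Gpc5*, a grey matter astrocyte gene, was 7952, 5730 and 2609 CPM and the GABA transporter gene *Slc6a11* 270, 195 and 78.4 CPM. *Slc1a2* was 6862, 6894 and 4667 CPM and *Apoe* 1460, 1558 and 1419 CPM. *Tyrobp*, a microglial gene, stood at 26.1, 22.0 and 29.95 CPM and *C1qb* at 59.9, 63.6 and 55.6 CPM, with intervals that overlapped in all 3 groups. The median depths were 5020.5, 5465 and 6520.5 UMIs. Of the 88 WMI astrocytes with *A2m*, 79 (89.8%, 81.5 to 95.2%) also held *Gfap*, against 59.9% (53.9 to 65.7%) of those without *A2m*, and 48 (54.5%, 43.6 to 65.2%) held *Cd44*, against 17.3% (13.1 to 22.3%). Of the 66 cells with *Aspg*, 64 held *Gfap*. Depth moves with these shares, as a deeper cell holds a UMI of any gene more often, and its part was not tested.

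**Figure D5:**
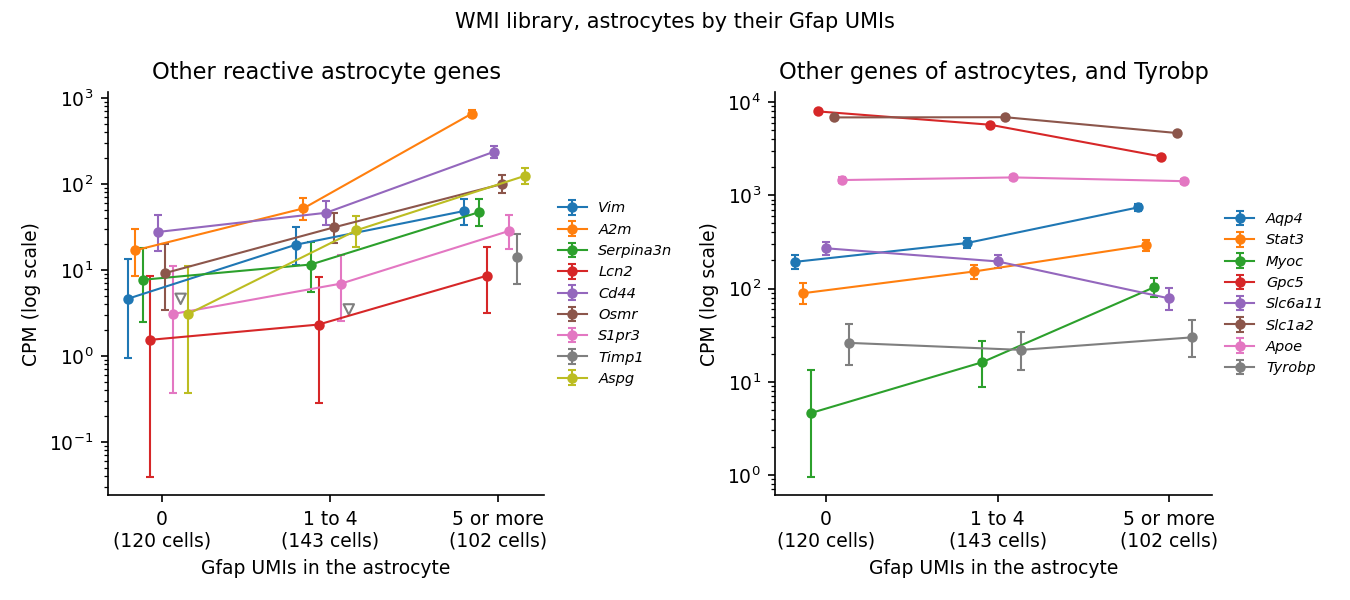
CPM (log scale) of the other 9 genes (left) and of further astrocyte genes and *Tyrobp* (right) in WMI astrocytes without *Gfap* UMIs, with 1 to 4 and with 5 or more. Bars are exact 95% Poisson intervals and open triangles the limit of 3 counts where *Timp1* had 0 UMIs. The members are highest in the 102 cells with 5 or more *Gfap* UMIs, where *A2m* reaches 657 CPM, while *Gpc5* and *Slc6a11* are lowest there.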

How the data were processed

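The deposited values are raw UMI counts for each gene in each barcode, not normalized, and per the file headers the authors counted with Cell Ranger 6.1.1. The labels name Seurat and mm9, while all 55450 gene identifiers matched GENCODE M21 on GRCm38, and the counting strand is not given in the sources used here. Barcodes that had more than 10% mitochondrial UMIs, fewer than 500 genes or fewer than 1000 UMIs (748 Control, 241 WMI) and 785 and 542 predicted doublets were removed; of 500 artificial doublets per library, 84.4% and 76.6% were found. Each of 11 classes needed 4 of its 8 markers and more than any other class, and ties were left out.

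Levels are summed UMIs per 1000000 (CPM) with exact 95% Poisson intervals, ratios have conditional binomial intervals, and shares have Clopper-Pearson intervals after thinning to 1000 UMIs. A count or share of 0 was set against a limit of 3 counts per class, and no fold was given when neither count exceeded 3. Genes needed 50 UMIs over both groups compared (40 in thinned cells, with 10 in each library for genes most like *Gfap*), and a call was at least 2-fold. On simulated counts for 8959 genes with 200 changed, intervals of the WMI against Control ratio covered 96% of the changed genes. These counts were drawn from the Poisson model that the intervals assume. The coverage thus checks the computation only and does not hold for variation between cells or mice.

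The members and gene lists were chosen with earlier results of these data known. The text names the 10 members, the genes of the fixed lists and the 10 genes most like *Gfap*; *Xist*, *Syn1* and the genes overlapping members were added after their values were seen. Motifs were searched on both strands of RefSeq promoters. With 1 library per group, PCR and droplet effects are not separable from condition. The tools were scikit-learn 1.9.0, scipy 1.17.1, pandas 2.3.3 and numpy 2.4.6 in Python 3.11.15.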

Additional observations from a re-analysis of the deposited data

Results flagged for a closer look

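Barcodes that reached no class or tied between classes (2187 Control, 1718 WMI) entered none of the comparisons, and most of the genes were higher there in the WMI library as well. The log2 ratio of WMI over Control was 3.94 for *Gfap* (57 and 959 UMIs), 3.19 for *Vim* (7 and 70), 6.34 for *A2m* (2 and 177, interval 4.46 to 9.39), 3.37 for *Serpina3n* (3 and 34, interval 1.70 to 5.72), 1.67 for *Cd44* (58 and 203), 2.97 for *Osmr* (5 and 43) and 5.45 for *Aspg* (1 and 48, interval 2.91 to 10.8). For *Lcn2* (0 and 14 UMIs) it was 2.09 against the limit of 3 counts, with a lower interval limit of 1.60. In barcodes removed for low depth or mitochondrial UMIs (748 Control, 241 WMI), *Gfap* gave 9 and 44 UMIs, a log2 ratio of 3.61.

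A pair of values lay on different sides of 0. In endothelial cells the log2 ratio of *Osmr*, WMI over Control, was -0.90 (-2.82 to 0.83), from 9 UMIs in 14 Control cells and 5 UMIs in 11 WMI cells, against 3.29 in astrocytes. The log2 ratio of *S1pr3* in astrocytes over other cells was -0.42 in Control (-2.31 to 0.97, 4 astrocyte UMIs) and 1.61 in WMI (0.98 to 2.18). Both negative values have intervals that hold 0, so that no opposite direction was shown, and neither difference was tested, since each library gives 1 value.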

How the results depend on the processing

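No paired analysis was possible because each group had 1 library and only the number 1 was shared, and for the same reason no replicate could be left out. The log2 ratio of *Gfap* between WMI and Control astrocytes lay between 3.22 (astrocytes that reach no other gate) and 3.66 over 16 alternatives, and it was 3.65 in the 148 Control and 28 WMI astrocytes without UMIs of microglia or macrophage markers. The range was wider for *Vim* (1.63 to 4.63), *A2m* (3.98 to 5.58), *Serpina3n* (2.70 to 5.87), *Cd44* (2.92 to 4.75), *Osmr* (3.13 to 4.77) and *Aspg* (4.06 to 7.62), and *S1pr3* kept to 2.32 to 2.88. The log2 ratios of *Lcn2* and *Timp1* rest on the limit of 3 Control counts. They fell under 2-fold in astrocytes that reach no other gate (0.78 and 0.46) and with at least 6 gate markers (0.51 and 0.99). The counts of members that follow asked no minimum of UMIs and have no background share to be read against. *Lcn2* and *Timp1* entered them by the limit of 3 Control counts. All 10 members were at least 2-fold higher in 10 alternatives. In the others the number was 8 (no other gate, at least 6 gate markers, or thinned to 1000 UMIs), 9 (Y-linked UMIs and no *Xist*), 7 (excitatory neuron level subtracted) and 6 (no microglial UMIs). A member without a ratio was not counted as higher. This held for *Lcn2* in Y-linked cells, *Lcn2* and *Timp1* after thinning, and *Serpina3n*, *Lcn2*, *S1pr3* and *Timp1* without microglial UMIs. It also held for *Lcn2*, *S1pr3* and *Timp1* after subtraction, where their Control level was at or below 0. In the cells without microglial UMIs the share of cells with *Aspg* turned to -0.676 percentage points (WMI minus Control), on 1 thinned *Aspg* UMI in Control astrocytes. The Control log2 ratio of *Cd44* in astrocytes over other cells turned to -0.21 there. That subset, the gate without *Aqp4* and the gate of 6 markers were chosen after seeing the data. The WMI log2 ratio of *Gfap* in astrocytes over other cells was 4.21 with doublets kept, 4.20 with no filter as well, 4.79 with at least 3000 UMIs per cell and 4.22 with a gate without *Aqp4*. The difference in the share of astrocytes with *Gfap* was 47.3 points without thinning and 39.5 at 2000 UMIs. Genes at least 2-fold higher and lower in WMI numbered 438 and 115; 989 and 306 at a minimum of 20 UMIs; 97 and 34 at 200 UMIs; 1256 and 628 at 1.5-fold; 228 and 185 in cells with Y-linked UMIs and no *Xist*; 130 and 222 without microglial UMIs; and 265 were higher in astrocytes that reach no other gate. These are numbers of genes past the UMI minimum of each setting and not shares. The cause of these shifts was not tested. Of the other values recomputed, 33 for single genes moved beyond their interval and 386 did not. Depth limits *Lcn2*, *Timp1*, *Vim*, *Serpina3n* and *S1pr3*, which had under 60 UMIs in WMI astrocytes.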
